A study of Homo sapiens with 6 samples.

Results

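The human APOBEC3 genes, APOBEC3A to APOBEC3H, are 7 neighbouring genes on chromosome 22. They were chosen by symbol, with the knowledge that APOBEC3B was lower with NRF3 siRNA in both HCT116 lines and that APOBEC3C, APOBEC3D and APOBEC3F were lower in H1299 cells with NRF3. A gene was followed through the probe set annotated to it alone, and through the probe set with the highest mean over the 6 arrays where there were several. This gave 6 of the 7 genes, out of 18417 genes with such a probe set. APOBEC3A shares its probe set with the deletion hybrid APOBEC3A_B and was therefore not followed as a gene.

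The study placed RNA of 6 groups on Affymetrix arrays, with 1 array for every group. HCT116, a human colon cancer line, received NRF3 siRNA or control siRNA, and so did HCT116-p53KO, its derivative that lacks p53. RNA from these 4 groups was taken 48 h after transfection. H1299 cells, from a human non-small cell carcinoma of the lung, carried an NRF3 plasmid or a GFP plasmid after selection with G-418. NRF3, the product of NFE2L3, is a transcription factor of the cap'n'collar family that binds DNA as a partner of small MAF proteins. The sequence and number of the siRNAs, and whether the H1299 lines are clones or pools, are not stated in the labels. Differences within a line rest on single arrays and have no check by replicates.

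APOBEC3 enzymes bind single-stranded nucleic acid and turn cytosine into uracil. They mutate the genomes of retroviruses and retrotransposons, and some of them also mutate the DNA of tumour cells. APOBEC3A, APOBEC3C and APOBEC3H have 1 zinc-binding deaminase domain, and APOBEC3B, APOBEC3D, APOBEC3F and APOBEC3G have 2. APOBEC3B is mainly nuclear and is often raised in cancers, whereas APOBEC3G, APOBEC3F, APOBEC3D and APOBEC3H are known as restriction factors of HIV that the viral Vif protein removes. The family grew by duplication, so its transcripts share long stretches of similar sequence, and probes of 1 member may bind RNA of another.

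Levels are RMA log2 intensities and differences are on the log2 scale. A gene was taken as measured in a comparison when it reached 6 on at least 1 of the arrays compared, and values under 6 are low on this scale. Levels were set side by side inside the HCT116 family or inside H1299, because array medians were 6.95 to 7.0 in the HCT116 family and 6.05 and 6.08 in H1299. NFE2L3 stood at 6.62 with NRF3 siRNA and 8.97 with control siRNA in HCT116, and at 7.15 and 8.71 in HCT116-p53KO. It stood at 10.20 with NRF3 and 8.18 with GFP in H1299. Epithelial EPCAM was at 10.91 to 11.42 and CDX2, a colon transcription factor, at 8.39 to 8.69 in the HCT116 family, while KRT20, VIL1 and LGR5 were under 6 on all 4 arrays. Of 4 mesenchymal markers 4 reached 6 in H1299 and 3 in the HCT116 family. In H1299 VIM was highest, at 12.08 with NRF3 and 12.45 with GFP, and FN1 lowest, at 6.30 and 7.07. FN1 was at 6.40 to 7.02 in the HCT116 family. Of 9 colon epithelium markers 4 reached 6 in H1299, namely CDX1, CDX2, KRT8 and KRT18, the last at 11.13 with NRF3 and 10.99 with GFP. The 4 lung epithelium markers tested, NKX2-1, SFTPB, SFTPC and NAPSA, were under 6 in H1299. Lymphoid cells are rich in several APOBEC3 transcripts, and of 6 lymphoid markers PTPRC was at 3.05 to 3.80 over the 6 arrays and only CD79A reached 6. Of 5 myeloid markers, 3 reached 6 in the HCT116 family and 2 in H1299. The myeloid marker TYROBP was at 7.73 to 8.13 in the HCT116 family. The arrays read bulk RNA, so fewer cells with a transcript and less of it per cell cannot be told apart.

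Among the members, the promoter table from RefSeq (GRCh38.p14) held APOBEC3H alone. Its 250 bases before the annotated start, at chr22:39096994-39097243 on the plus strand, are shown as the only member sequence in the reference used.
APOBEC3H: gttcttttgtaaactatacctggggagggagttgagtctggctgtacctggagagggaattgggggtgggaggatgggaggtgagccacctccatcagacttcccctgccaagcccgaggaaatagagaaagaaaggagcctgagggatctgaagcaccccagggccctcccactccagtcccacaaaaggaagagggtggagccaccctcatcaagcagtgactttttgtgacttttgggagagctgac
Both strands were searched for TGACNNNGC, the core of the antioxidant response element bound by cap'n'collar and small MAF proteins, and it was not in this window; 10.9% of the 35116 promoter windows of this length held it. A core of the interferon response element (GAAA, any 2 bases, GAAA) was in 3.02% of all windows and not in this one. The cell cycle letters TTTGAA (13.3% of windows), TTCGAA (1.19%), TTTGGCGC (0.550%) and TTTCGCGC (0.439%) were also not in it, so no base is in capitals. These windows say nothing about elements that lie elsewhere.

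APOBEC3B was the member that stood apart in both knockdowns. In HCT116 its level was 9.92 with NRF3 siRNA and 11.34 with control siRNA, a difference of -1.41, or 2.66-fold lower. For HCT116-p53KO the array values were 9.42 with NRF3 siRNA and 10.75 with control siRNA, a difference of -1.33, or 2.52-fold lower. Both lines therefore showed nearly the same size, with the siRNA difference in HCT116-p53KO only 0.08 less negative than in HCT116. The gene ranked 24 from the lowest of 14034 measured genes in HCT116 and 16 from the lowest of 13680 in HCT116-p53KO. In H1299 it was under 6 on both arrays, at 5.04 with NRF3 and 5.23 with GFP, so these arrays do not show how the gene behaves there when NRF3 is raised. The lncRNA APOBEC3B-AS1 overlaps APOBEC3B in the RefSeq table, and whether the probes separate them was not tested.

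APOBEC3C, APOBEC3D and APOBEC3F did not share the difference of APOBEC3B in HCT116. APOBEC3C, a small single-domain enzyme with weak activity against HIV, had 10.33 with NRF3 siRNA and 10.27 with control siRNA in HCT116. APOBEC3D, a double-domain restriction factor, had 8.06 and 8.02 in the same order. APOBEC3F, another double-domain restriction factor, had 8.80 and 8.78. The differences of 0.06, 0.03 and 0.01 lay near the median of all measured genes, which was 0.01. In HCT116-p53KO, APOBEC3C had 9.08 with NRF3 siRNA and 9.53 with control siRNA, a difference of -0.45, or 1.37-fold lower. APOBEC3D differed by -0.01 and APOBEC3F by -0.16 in that line.

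Levels of APOBEC3G and APOBEC3H stayed low on the scale. APOBEC3G, the first of the family to be known as an HIV restriction factor, was at 5.42 with NRF3 siRNA and 5.44 with control siRNA in HCT116. It was at 5.20 and 5.27 in HCT116-p53KO, and at 4.12 with NRF3 and 3.57 with GFP in H1299. APOBEC3H, a single-domain enzyme of which several common human forms are unstable, was at 6.12 with NRF3 siRNA and 5.49 with control siRNA in HCT116, and at 5.08 and 5.35 in HCT116-p53KO. In H1299 it was at 4.24 with NRF3 and 3.92 with GFP. APOBEC3G thus never reached 6, and APOBEC3H did so on the HCT116 array with NRF3 siRNA and on no other. The probe set shared by APOBEC3A and APOBEC3A_B read 6.01 and 5.73 in HCT116, 5.61 and 5.99 in HCT116-p53KO and 5.33 on both H1299 arrays, with the NRF3 siRNA array first in each HCT116 pair.

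**Figure D1:**
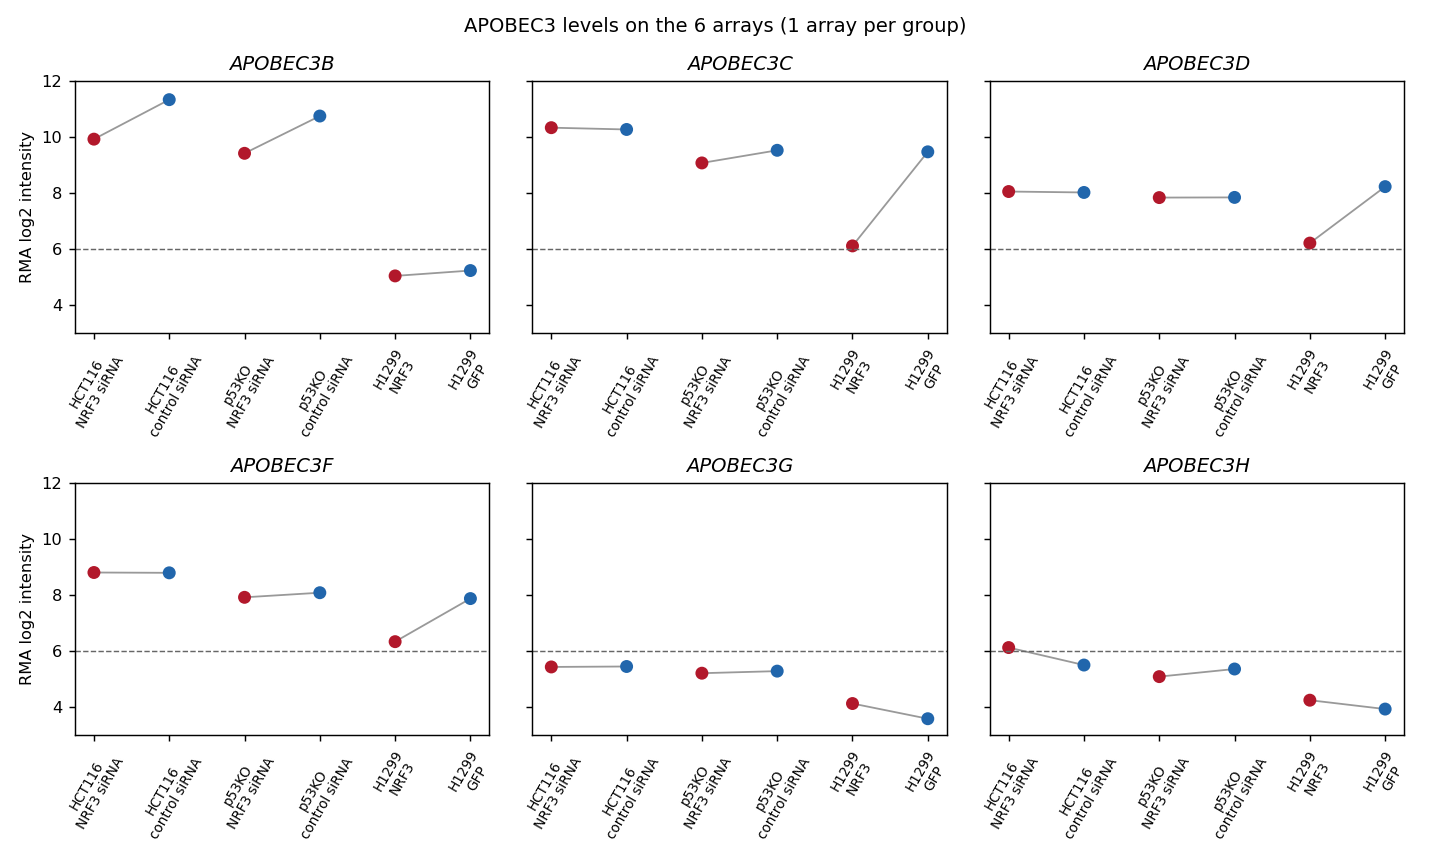
RMA log2 intensity of each APOBEC3 gene on the 6 arrays, red with NRF3 siRNA or NRF3 plasmid and blue with control siRNA or GFP; p53KO on the axis is HCT116-p53KO, each point is 1 array, grey lines join the arrays of a pair and the dashed line marks 6. APOBEC3B is lower in both knockdown pairs, and APOBEC3C, APOBEC3D and APOBEC3F are lower in the H1299 pair, at 6.11, 6.21 and 6.33 with NRF3.

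By size, 1 of 5 measured members was lower by at least 2-fold in HCT116, where 1.03% of all measured genes were. In HCT116-p53KO it was 1 of 4, with 0.431% of all measured genes. In both cases the member was APOBEC3B, and since these contrasts chose the members, nothing is read from the counts. No measured member was higher by 2-fold in either line, where 0.221% of genes in HCT116 and 0.278% in HCT116-p53KO were. At 1.5-fold, APOBEC3H was higher in HCT116 (1.54-fold), with 2.71% of all measured genes, and no member was in HCT116-p53KO, with 3.63%. After loess correction APOBEC3H was at 0.47 in HCT116, short of 1.5-fold. The lower member at 1.5-fold was again APOBEC3B in each line, with 6.02% of all measured genes in HCT116 and 2.38% in HCT116-p53KO.

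The 3 members lower in H1299 with NRF3 lie side by side in the cluster. APOBEC3C had 6.11 with NRF3 and 9.47 with GFP, a difference of -3.36, or 10.3-fold lower. APOBEC3D had 6.21 with NRF3 and 8.23 with GFP, a difference of -2.02, or 4.04-fold lower. APOBEC3F had 6.33 with NRF3 and 7.86 with GFP, a difference of -1.54, or 2.90-fold lower. All 3 thus ended just above 6 on the NRF3 array, and their order by size of difference is also the order of their GFP levels. They ranked 2, 12 and 34 from the lowest of 11304 measured genes. A second probe set for APOBEC3F, annotated to a shorter transcript, read 6.06 with NRF3 and 7.22 with GFP, a difference of -1.17. These 3 were all of the members measured in H1299, and 1.14% of all measured genes were lower by at least 2-fold and 4.2% by at least 1.5-fold. None was higher by 2-fold, where 0.681% of all measured genes were. That contrast, too, chose the members, so the count of 3 is a description.

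Since members share sequence, the differences of their probe sets can be read side by side. In HCT116 the APOBEC3B probe set differed by -1.41 between the siRNA arrays, and those of APOBEC3C, APOBEC3D and APOBEC3F by 0.06, 0.03 and 0.01. In HCT116-p53KO it differed by -1.33, and theirs by -0.45, -0.01 and -0.16. In H1299 the probe sets of APOBEC3C, APOBEC3D and APOBEC3F were lower together. The part of cross-hybridisation in these values was not tested, since probe sequences were not used here.

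**Figure D2:**
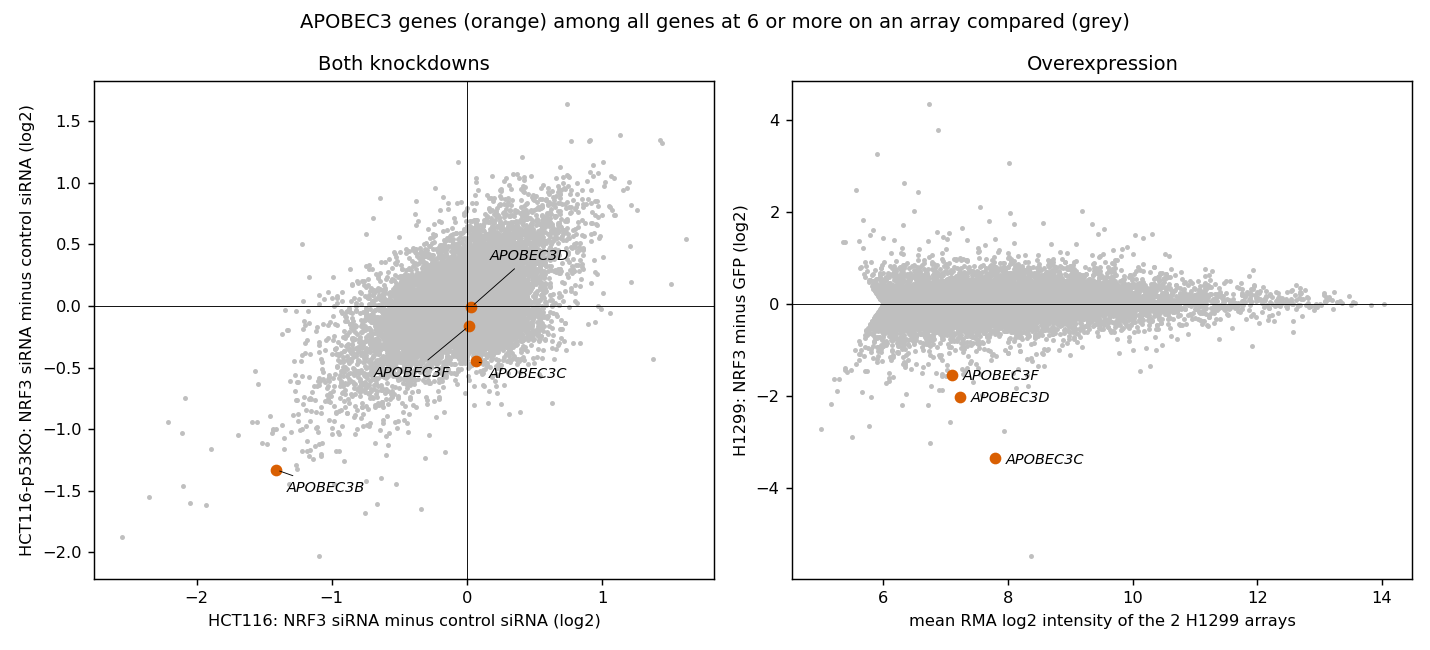
Left, the NRF3 siRNA difference in HCT116 (x axis, log2) against that in HCT116-p53KO (y axis, log2); right, the NRF3 minus GFP difference in H1299 (y axis, log2) against the mean intensity of both arrays. Grey points are all measured genes and orange points the APOBEC3 genes, with APOBEC3B at -1.41 and -1.33 on the left and APOBEC3C at -3.36 on the right.

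Genes flanking the cluster differed in other ways. The 8 neighbours, from SUN2 to SYNGR1, were all measured in each comparison, and their median difference in H1299 was -0.08, with 0 of 8 past 1.5-fold in either direction. The nearest flanks, CBX6 and CBX7, which encode Polycomb chromobox proteins, were at -0.21 and 0.02 there. Among measured genes, the H1299 difference thus covered APOBEC3C, APOBEC3D and APOBEC3F and neither flank. APOBEC3B, APOBEC3G and APOBEC3H, which lie between them and the flanks, were under 6 on both H1299 arrays. APOBEC3A had no probe set of its own, so how far the difference reached within the cluster is not shown. In the knockdowns CBX6 was higher, by 0.65 in HCT116 and by 0.58 in HCT116-p53KO, where it was at 9.33 with NRF3 siRNA and 8.74 with control siRNA. PDGFB, a platelet-derived growth factor chain on the other flank, was lower, at 6.73 with NRF3 siRNA and 7.56 with control siRNA in HCT116 (-0.83) and at 6.94 and 7.83 in HCT116-p53KO (-0.89). CBX7, which lies between PDGFB and the cluster, differed by 0.14 and -0.14.

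**Figure D3:**
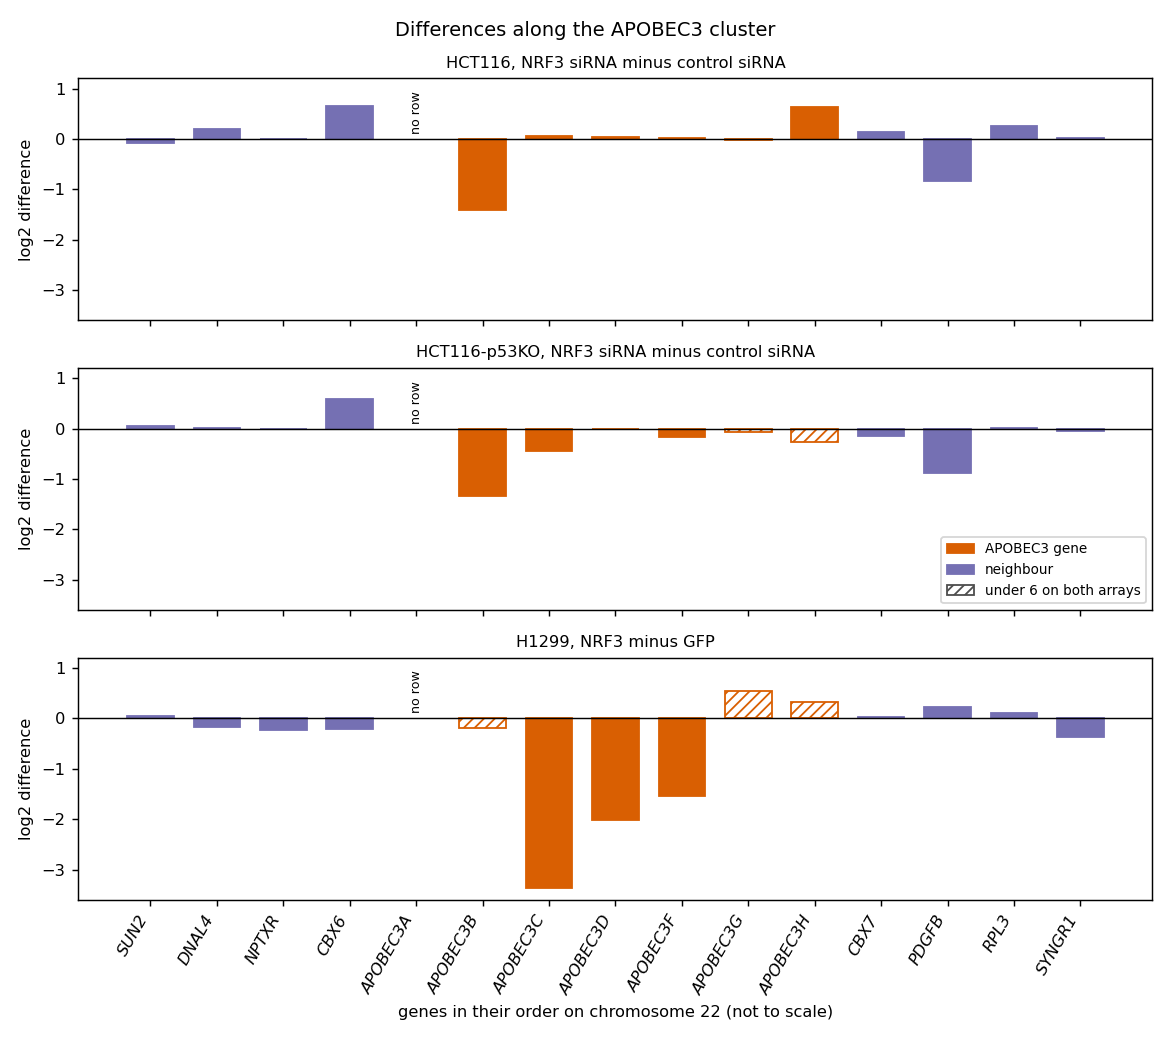
Log2 difference (y axis) of the APOBEC3 genes (orange) and their neighbours (purple) in chromosomal order (x axis, not to scale) for HCT116, HCT116-p53KO and H1299; each bar compares 1 array with 1 array, and hatched bars are under 6 on both. APOBEC3B is the lowest bar in both knockdown panels, and APOBEC3C, APOBEC3D and APOBEC3F, at -3.36, -2.02 and -1.54, are the lowest in the H1299 panel.

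HCT116-p53KO and HCT116 were compared next, a contrast on which the members were not chosen. Here the siRNA states gave a pair of arrays for each line, and limma was fitted to the 4 arrays with siRNA as a block. APOBEC3C fell most in HCT116-p53KO. It had 9.08 with NRF3 siRNA and 9.53 with control siRNA in HCT116-p53KO, against 10.33 and 10.27 in HCT116. The estimate was -1.001 ± 0.16 (SE) with a limma adjusted p of 4.63e-08. The HCT116-p53KO arrays lay below the HCT116 arrays, as they also did for APOBEC3D, APOBEC3F and APOBEC3H. This does not set APOBEC3C apart, and its share over all genes was not counted.

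APOBEC3F had 7.91 with NRF3 siRNA and 8.07 with control siRNA in HCT116-p53KO, against 8.80 and 8.78 in HCT116. It fell by 0.80 ± 0.16 (SE), or 1.74-fold, with a limma adjusted p of 3.77e-05. The shorter-transcript probe set of the gene differed less, by -0.36 in each siRNA state. APOBEC3B had 9.42 and 10.75 in HCT116-p53KO, against 9.92 and 11.34 in HCT116, in the same order of siRNA. It fell by 0.55 ± 0.16 (SE), or 1.46-fold, with a limma adjusted p of 0.0134. The lines overlapped for APOBEC3B, because the siRNA difference is larger than the line difference, but within each siRNA state HCT116-p53KO was lower. For APOBEC3D the estimate was -0.20 (95% interval -0.51 to 0.12), and its adjusted p of 0.596 from limma missed the threshold.

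APOBEC3H was also called by limma, at -0.59 ± 0.16 (SE) with an adjusted p of 0.00571, but it was measured only through its value of 6.12 in HCT116 with NRF3 siRNA. Its line difference was -1.04 with NRF3 siRNA and -0.14 with control siRNA. By size, APOBEC3C and APOBEC3H were lower by at least 2-fold with NRF3 siRNA, 2 of 5 measured members, where 1.35% of all measured genes were, and APOBEC3F too at 1.5-fold, where 4.75% were. With control siRNA 0 of 4 were lower by 2-fold (1.3% of all measured genes) and 2, APOBEC3C and APOBEC3F, by 1.5-fold (3.45%). APOBEC3B, at 1.4998-fold, was just short of 1.5-fold. APOBEC3G was under 6 on all 4 arrays and was not tested. The calls thus covered 4 of 5 measured members, all lower in HCT116-p53KO, APOBEC3H among them, where limma called 4.65% of all 14148 genes lower and 3.46% higher. Of the 8 neighbours limma called 0, with 1 at an unadjusted p under 0.05. Nothing is read from the count of members, since APOBEC3H was measured through its high array alone.

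These p-values rest on 1 residual degree of freedom. limma then used a spread common to all genes, so that a call was any line difference of 0.47 (1.38-fold) or more, and the spread is that of the line difference between the siRNA states, not between cultures. With each gene's own residual, or with all 6 arrays in the fit, limma called 0 of the 5 members, with adjusted p-values of 0.729 to 0.779 and 0.443 to 0.936 and 1 member at an unadjusted p under 0.05 each time. Whether the difference belongs to the loss of p53 or to another difference between the lines cannot be told apart.

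**Figure D4:**
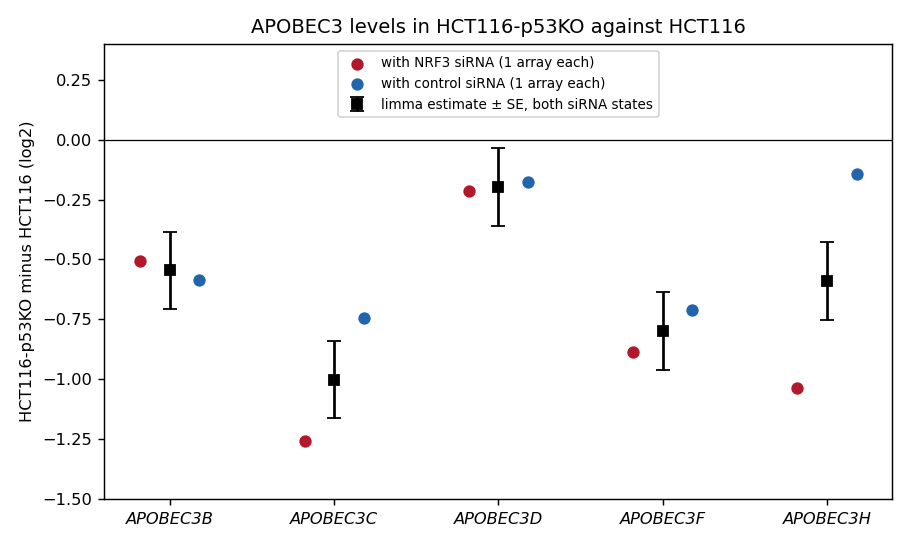
HCT116-p53KO minus HCT116 (y axis, log2) for the 5 measured APOBEC3 genes: red with NRF3 siRNA, blue with control siRNA (1 array of each line), black squares the limma estimate over both with its SE. Estimates are -1.001 for APOBEC3C, -0.80 for APOBEC3F, -0.59 for APOBEC3H, -0.55 for APOBEC3B and -0.20 for APOBEC3D.

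The siRNA difference of APOBEC3C was 0.52 more negative in HCT116-p53KO than in HCT116, and that of APOBEC3H 0.90 more negative. For APOBEC3D and APOBEC3F the gaps were -0.04 and -0.18. With 1 array per group these gaps could not be tested.

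Relatives of the family outside the cluster were low. APOBEC1, the editor of apolipoprotein B mRNA, was at 4.47 to 5.51 over the 6 arrays, and APOBEC4, a member without a settled function, at 3.20 to 3.91. Among 5 RNA editing factors none was past 1.5-fold in a NRF3 comparison, and ADAR, the main adenosine deaminase of RNA, differed by -0.07, 0.04 and -0.06 in HCT116, HCT116-p53KO and H1299. Between the lines, A1CF, a cofactor of APOBEC1, was at 0.59 ± 0.16 (SE) in HCT116-p53KO over HCT116, with a limma adjusted p of 0.00593. It was 1 of 5 called, where limma called 3.46% of all genes higher. Its level was 6.58 with NRF3 siRNA and 6.32 with control siRNA in HCT116-p53KO, and 5.96 and 5.77 in HCT116. A1CF was thus measured only through the line where it was higher, and nothing is read from the call. With all 6 arrays in the fit its limma adjusted p was 0.152.

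Uracils that APOBEC3 enzymes leave in DNA are removed by uracil DNA glycosylases and base excision repair. All 14 genes of this list were measured, and 0 were past 1.5-fold in any NRF3 comparison. The median difference of the list was -0.06, 0.14 and 0.03 in HCT116, HCT116-p53KO and H1299, beside 0.01, 0.00 and 0.00 over all measured genes. UNG, the main uracil DNA glycosylase, was at 10.05 with NRF3 siRNA and 9.79 with control siRNA in HCT116, at 10.22 and 9.99 in HCT116-p53KO, and at 8.40 with NRF3 and 8.07 with GFP in H1299. It was slightly higher in all 3 comparisons, by 0.26, 0.22 and 0.34. FEN1, a flap endonuclease, was at 0.52 in H1299, and TDG, the thymine DNA glycosylase, at -0.48 and -0.36 in the knockdowns. Between HCT116-p53KO and HCT116 limma called 0 of 14, with an unadjusted p under 0.05 for 2 of them.

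The DREAM and MYB-MuvB complexes and E2F factors control cell cycle genes and are known to act at the APOBEC3B promoter. Of 17 measured, 12 were below 0 in HCT116 and 10 in HCT116-p53KO, with medians of -0.18 and -0.11. In H1299, 7 were below 0 and the median was 0.07. Over all measured genes the medians were 0.01, 0.00 and 0.00 in the same order. E2F5, a repressive E2F, was lower by at least 1.5-fold in all 3 comparisons (-0.91, -0.68 and -0.97), the last of them with NRF3 raised. LIN9, a MuvB core subunit, was at -0.86 in HCT116 and -0.05 in HCT116-p53KO, and FOXM1, a mitotic transcription factor, at -0.71 and -0.13. RBBP4, a histone chaperone of MuvB, was higher, at 0.64 and 0.44. For the line difference, 16 of 17 had estimates above 0, with a median of 0.27 beside 0.006 over all genes. As higher in HCT116-p53KO, limma called 1 of 17, where it called 3.46% of all genes. This was MYBL2, the MYB factor of that complex, at 0.47 ± 0.16 (SE) with a limma adjusted p of 0.0493. That call was lost with repeated quantile normalization (adjusted p = 0.124) and with no filter (adjusted p = 0.0876).

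NF-kappaB signalling, in which protein kinase C can switch on APOBEC3B through the RELB and NFKB2 arm, was given by 13 genes. RELB was at 8.23 with NRF3 siRNA and 7.53 with control siRNA in HCT116 (0.70) and at 7.81 and 7.73 in HCT116-p53KO (0.08). NFKB2 was at 0.28 and 0.46, and RELA at -0.50 and -0.52. In H1299, 11 of 12 measured genes were above 0, with a median of 0.41 beside 0.00 over all measured genes. The 4 past 1.5-fold were CHUK (0.79), the IKK alpha kinase, PRKCD (0.76) and PRKCE (0.65), protein kinases C delta and epsilon, and NFKB2 (0.64), where 4.82% of all measured genes were higher by as much. For HCT116-p53KO over HCT116 limma called 0 of 13, and 0 had an unadjusted p under 0.05.

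Type I interferon, which induces several APOBEC3 genes in immune cells, was given by 9 signalling genes. The median difference was -0.48, -0.10 and 0.10 in HCT116, HCT116-p53KO and H1299. IFNAR1, a receptor chain, was at -0.87 and -0.47 in the knockdowns, JAK1, its kinase, at -0.67 and -0.69, and IRF9, the DNA-binding part of the induced complex, at -0.50 and -0.31. IFNE, an epithelial interferon, differed most, at -2.55 and -1.88, with the NRF3 siRNA arrays under 6. It was also the 1 of 9 that limma called between the lines, at -0.50 ± 0.16 (SE) in HCT116-p53KO over HCT116 with an adjusted p of 0.0309, and it missed the threshold with no filter, with repeated quantile normalization and with limma's trended robust prior. In H1299, where APOBEC3C, APOBEC3D and APOBEC3F were lower, 0 of 8 measured genes of the list were past 1.5-fold.

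Other retroviral restriction factors were given by a list of their own. Of 13 with a probe set, 8 were measured in H1299, 0 of them past 1.5-fold, and their median was 0.12. SAMHD1, which degrades nucleotides needed by retroviruses, was at 0.14 there and TRIM5, a capsid sensor, at -0.51. In the knockdowns 9 were measured. IFITM1, a membrane protein that blocks viral entry, was at 6.095 with NRF3 siRNA and 6.62 with control siRNA in HCT116 (-0.53) and at 6.01 and 7.46 in HCT116-p53KO (-1.45). CBFB, the cofactor that Vif uses against APOBEC3 proteins, was at -0.38 and -0.27. In HCT116-p53KO against HCT116, SERINC5, which lowers the infectivity of HIV particles, fell by 1.15 ± 0.16 (SE), with a limma adjusted p of 1.34e-10. SAMHD1 rose by 0.50 ± 0.16 (SE), with a limma adjusted p of 0.0287, and missed the threshold with repeated quantile normalization (adjusted p = 0.0989) and with no filter (adjusted p = 0.0625). With each gene's own residual limma called neither, and with all 6 arrays SERINC5 (adjusted p = 0.0109) but not SAMHD1.

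The genes whose 3 NRF3 differences lay nearest to those of APOBEC3B, by Euclidean distance among 10856 genes measured in all 3 comparisons, were TIMP2, TMEM54, RRAGC, PXN and SMAD3. TIMP2, a metalloproteinase inhibitor, was at -1.26, -1.33 and 0.01 in HCT116, HCT116-p53KO and H1299, a distance of 0.25. The distances of the other 4 were 0.30 to 0.36. APOBEC3B itself was under 6 in H1299, so its H1299 value is uncertain in size. For APOBEC3C the nearest were EMP2, GATM, APOBEC3D, RTL6 and PTPRS, at distances of 1.03 to 1.46. These distances are several times those of APOBEC3B, and the nearest APOBEC3 gene was APOBEC3D at 1.41. EMP2, a tetraspan membrane protein, was at 0.21, 0.51 and -3.03.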

How the data were processed

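Total RNA (100 ng) was labelled with whole-transcript reagents, per the labels' protocols. The authors deposited log2 intensities for 33297 probe sets. RMA and Affymetrix Expression Console are the tools listed, per the submitters' processing notes, without versions. RMA quantile-normalizes, but the labels do not say over which arrays; sorted values differed by 0.0157 to 0.0703 on average within the HCT116 family, by 0.0326 within H1299 and by 0.779 to 0.805 across.

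From these values, 19460 probe sets had 1 gene symbol in the array's annotation, 1754 had several and 12083 were unnamed. Log2 differences were counted at 2-fold among genes at 6 or more on an array compared. HCT116-p53KO was tested against HCT116 with limma 3.58.1 in R 4.3.3 (siRNA as a block, 14148 genes, two-sided, Benjamini-Hochberg at 0.05). In simulation of that fit, 23 of 50 genes changed by 0.5 (log2) were called, 50 of 50 at 1, and 10 of 13948 unchanged genes. The simulation gave all genes the same spread, as the fit assumes. It therefore cannot show how often unchanged genes are called where genes differ in spread or cultures vary. The number of arrays limits the precision. The members and the 9 gene lists were chosen with earlier results of these data known. Named genes were the members, NFE2L3, the neighbours, up to 4 genes per other list with the largest differences (or any past 1.5-fold), and the 5 genes nearest to APOBEC3B and to APOBEC3C; ADAR, NFKB2, RELA, CBFB, SAMHD1 and others short of that rule were added for their known role. Alternatives were other normalizations, filters, probe set means, size thresholds, variance priors and a fit of all 6 arrays.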

Additional observations from a re-analysis of the deposited data

Results flagged for a closer look

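For 3 members the NRF3 siRNA difference had opposite signs in the HCT116 lines, which drew attention to them; the difference between the lines was not tested. APOBEC3C was at -0.451 in HCT116-p53KO and 0.0642 in HCT116. APOBEC3F was at -0.165 in HCT116-p53KO and 0.0115 in HCT116. APOBEC3D was at -0.00627 in HCT116-p53KO and 0.0331 in HCT116, both near 0.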

How the results depend on the processing

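The line comparison was paired by siRNA state through the block in limma; for the NRF3 comparisons within a line, no paired analysis was possible because each group had 1 array. Over the other settings tried, the NRF3 differences of APOBEC3B, APOBEC3C and APOBEC3D kept their sign in all 3 lines where measured: APOBEC3B was at -1.42 to -1.34 in HCT116 and -1.38 to -1.33 in HCT116-p53KO, and APOBEC3C was at -3.40 to -3.36 and APOBEC3D at -2.03 to -2.00 in H1299. APOBEC3F was at -1.55 to -1.35 in H1299, and its difference in HCT116, near 0, changed sign (-0.11 to 0.09). The count of members lower by at least 2-fold did not change in any NRF3 comparison. In HCT116-p53KO against HCT116 it was 2 with NRF3 siRNA, APOBEC3C and APOBEC3H. It was 1 with quantile normalization repeated over 6 arrays or with loess correction (span 0.4). It was also 1 with a filter of 7 or with both arrays at 6 or more. With control siRNA the count was 0 at 2-fold and, in the main setting, 2 at 1.5-fold. Over the settings APOBEC3B was at -0.66 to -0.58 there and APOBEC3F at -0.72 to -0.53. Both lie near 1.5-fold, so the count of 2 is not firm. limma called 4 members lower over both siRNA states, and 0 with each gene's own residual or with all 6 arrays. Over all genes it called 1148, against 642 with repeated quantile normalization, 188 with all 6 arrays and 3 with each gene's own residual; the cause was not tested. APOBEC3H missed the threshold with limma's trended robust prior (adjusted p = 0.0768) and with no filter (adjusted p = 0.0602) as well. No list median moved by 0.25 or more in 280 recomputations. The siRNA difference of APOBEC3H in HCT116 was 0.47 to 0.62, under 1.5-fold with loess correction. The number of arrays limits all members, and low signal limits APOBEC3G, APOBEC3H and, in H1299, APOBEC3B; APOBEC3C, APOBEC3D and APOBEC3F were just above 6 there with NRF3. Of the 5 genes of other lists that limma called between the lines, 0 were called with each gene's own residual.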
